A study of Mus musculus with 24 samples.

Results

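The 33 genes described here encode chemokines and chemokine receptors, 25 ligands and 8 receptors, of 18193 genes named on the arrays. They were taken by name, not by any measured value, and lie on 49 probe sets, with 1 probe set for 21 genes and several for 12. Bone marrow of 3 wild-type (WT) and 3 STAT6 KO mice, all C57Bl/6, grew for 10 days in medium with 20 ng/ml M-CSF, the cytokine that turns marrow cells into bone marrow-derived macrophages. Each mouse gave a control and an IL-4 culture (20 ng/ml), each with vehicle (DMSO:ethanol) or with 1 µM Rosiglitazone (RSG), a synthetic agonist of PPARγ, a nuclear receptor. The 24 arrays form 8 groups of 3, 1 array per mouse. STAT6 is the transcription factor activated by the IL-4 receptor, the KO lacks it in every cell, and IL-4 was added to mixed marrow during differentiation, so that cells other than macrophages could remain in a culture.

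Chemokines are small secreted proteins that guide leukocytes through G protein-coupled receptors. They are named after the spacing of their first cysteines, and most of their genes lie in clusters. In macrophages the ligands of neutrophils and of Th1 cells are known as products of NF-κB and interferon signaling, while Ccl17, Ccl22 and Ccl24 are known as products of IL-4 signaling in alternatively activated macrophages. The design asked how IL-4 and STAT6 alter what RSG does to gene expression in macrophages.

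Many of these genes are neighbours. On chromosome 5 the order of coding genes runs Cxcl5, Ppbp, Pf4, Cxcl3, Cxcl15, Cxcl1, Cxcl2, and farther along Cxcl9 and Cxcl10 lie on either side of Art3. The IL-4 change of the neutrophil ligands Cxcl1, Cxcl2 and Cxcl3 and of the Th1 ligand Cxcl10 differed between WT and KO, and Ccl17 is the member with a STAT6 motif. The windows printed are those of these genes, and each was picked with a motif in it. Each has 250 bases before and 50 after the RefSeq start (build GRCm38.p6). In the first 4 the capitals mark a κB motif (GGGA and TTCC with 2 bases between them), in Cxcl10 also an interferon-stimulated response element (ISRE) motif (GAAA and GAAA with 2 bases between), and in Ccl17 the STAT6 motif (TTC and GAA with 4 bases between). All were searched on both strands.
Cxcl1, chr5:90890995-90891294, plus strand: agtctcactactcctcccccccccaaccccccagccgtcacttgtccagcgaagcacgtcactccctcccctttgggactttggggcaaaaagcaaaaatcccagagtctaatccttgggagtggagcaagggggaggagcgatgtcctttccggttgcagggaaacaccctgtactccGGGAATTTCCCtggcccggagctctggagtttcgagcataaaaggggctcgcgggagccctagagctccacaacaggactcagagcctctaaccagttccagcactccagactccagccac
Cxcl2, chr5:90903649-90903948, plus strand: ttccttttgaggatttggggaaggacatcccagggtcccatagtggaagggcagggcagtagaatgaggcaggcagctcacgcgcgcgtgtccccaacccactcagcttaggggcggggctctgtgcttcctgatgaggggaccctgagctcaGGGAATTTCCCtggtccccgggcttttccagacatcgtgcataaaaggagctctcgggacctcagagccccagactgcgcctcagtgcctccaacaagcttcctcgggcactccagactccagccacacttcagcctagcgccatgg
Cxcl3, chr5:90785851-90786150, plus strand: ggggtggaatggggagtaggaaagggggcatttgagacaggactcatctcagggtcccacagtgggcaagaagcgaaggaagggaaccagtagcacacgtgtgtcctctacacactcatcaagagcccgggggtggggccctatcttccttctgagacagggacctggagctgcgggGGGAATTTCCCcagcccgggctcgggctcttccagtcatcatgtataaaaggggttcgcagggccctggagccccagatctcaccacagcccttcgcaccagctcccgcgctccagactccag
Cxcl10, chr5:92348840-92349139, minus strand: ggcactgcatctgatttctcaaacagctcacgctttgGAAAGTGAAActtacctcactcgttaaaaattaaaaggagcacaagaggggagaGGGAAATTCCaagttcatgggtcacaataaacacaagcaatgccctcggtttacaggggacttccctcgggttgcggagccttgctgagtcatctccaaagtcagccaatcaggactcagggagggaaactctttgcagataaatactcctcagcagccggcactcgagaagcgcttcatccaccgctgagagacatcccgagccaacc
Ccl17, chr8:94810203-94810502, plus strand: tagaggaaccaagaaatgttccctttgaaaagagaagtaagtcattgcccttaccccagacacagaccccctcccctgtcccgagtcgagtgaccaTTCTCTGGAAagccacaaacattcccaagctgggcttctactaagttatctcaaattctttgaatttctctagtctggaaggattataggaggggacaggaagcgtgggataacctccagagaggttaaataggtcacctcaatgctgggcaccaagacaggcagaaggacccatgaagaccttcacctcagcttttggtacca

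A promoter window was given for 24 of the 33 genes and none for Ccl2, Ccl4, Ccl5, Ccl7, Ccl24, Cxcl5, Cxcl11, Cxcl16 and Ccr7. The κB motif was in 5 of the 24, the 4 above and Ccr3, and in 1.47% of 32851 promoter windows of the same length. In Cxcl1, Cxcl2 and Cxcl3 it was the same run of 11 bases, GGGAATTTCCC, which reads as the motif on each strand and was counted once. It began 71, 97 and 73 bases before the start. The ISRE motif was in Cxcl10, 213 bases before the start, and in Cxcl14, and in 3.44% of all windows. The STAT6 motif was in Ccl17 alone, 154 bases before the start, and in 6.95% of all windows. The windows of Cxcl9, Ccl22, Ppbp, Ccr2, Ccl12, Ccl3, Cxcr2, Cxcr3 and Pf4 held none of these motifs, though their IL-4 change also differed between WT and KO. The motifs are matches of letters, and no binding was measured.

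Each value below is the log2 of a ratio that is scaled per probe set, with a median of 1 over the arrays for 48 of the 49 probe sets and of 0.40 for the representative one of Cx3cr1, so it holds no absolute level, and levels of different genes cannot be set side by side. Changes are differences of the mean log2 ratios of 3 arrays per group ± SE, tested by limma with Benjamini-Hochberg adjustment over 45037 probe sets. The SE of a probe set comes from its spread pooled over all 8 groups, so it is the same in WT and KO. Leaving out arrays that are not in a comparison keeps its change as it is and alters only this spread and the adjustment. A gene was called higher or lower at an adjusted p under 0.05 with a change of at least 1.5-fold on its representative probe set. The log2 ratio of Stat6 was 0.71 to 1.14 on the 12 WT arrays and -2.12 to -1.48 on the 12 KO arrays, as labelled. Within the WT control vehicle group the array of mouse 3 stood apart, and it is called the mouse 3 control array. It had a mean of 1.41 over 6 IL-4 response genes (Arg1, Chil3, Retnla and others), against -1.76 and -1.19 on the other two arrays. Marker means of several other cell types were also highest there. They were 0.95 for mast cells and basophils (against -1.45 and -1.50), 0.19 for lymphocytes (-1.12 and -2.02) and 1.38 for eosinophils (-0.33 and 0.09). For neutrophils the mean was 0.71 (-0.56 and -0.18) and for dendritic cells 0.46 (-0.64 and -0.37). Lowest there were the means of megakaryocytes and platelets, -0.39 (-0.20 and -0.31), and of stromal fibroblasts, -0.04 (1.15 and 2.20). Of the 33 chemokine and receptor genes, 19 were highest there, 10 of them by at least 1 on the log2 scale. Stromal fibroblast markers were high on a pair of arrays, at a mean of 2.20 in mouse 2 (WT control vehicle) and of 4.28 in mouse 6 (KO control RSG). These are called the stromal-high arrays.

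IL-4 moved chemokine genes mostly downward in WT and mostly upward in KO. In WT with vehicle 5 genes rose, Ccl24, Ccl8, Ccr1, Ccl9 and Ccl6, and 13 fell, led by Cxcl9, Cxcl2, Cxcl10 and Ccr2. In KO 20 genes rose, led by Ccr7, Ppbp, Ccl12 and Ccl5, and 2 fell, Cxcr4 and Cxcl14. By the methods' t-test the WT calls of Ccl24, Ccl8, Ccl9, Ccl6, Cxcl9, Ccl5, Ppbp and Cxcr4 were lost. The KO calls lost by it were those of Cxcl9, Cxcl11, Cxcl5, Ccr7 and Cxcl14, while Ccl2 gained a call as higher in KO. By probe set 25 of 49 were called in WT, 51% against 12.9% of all probe sets, with 8 higher and 17 lower where 7.01% and 5.94% of all probe sets were. In KO 28 of 49 were called, 57.1% against 11.5%, with 26 higher and 2 lower where 4.25% and 7.26% of all were. The arrays of control and IL-4 did not overlap for 32 of 49 probe sets in WT and 37 of 49 in KO, against 32.8% and 31.9% of all probe sets. The median change of the 33 genes was -1.04 in WT and 1.37 in KO, and that of all probe sets 0.09 and -0.14.

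**Figure D1:**
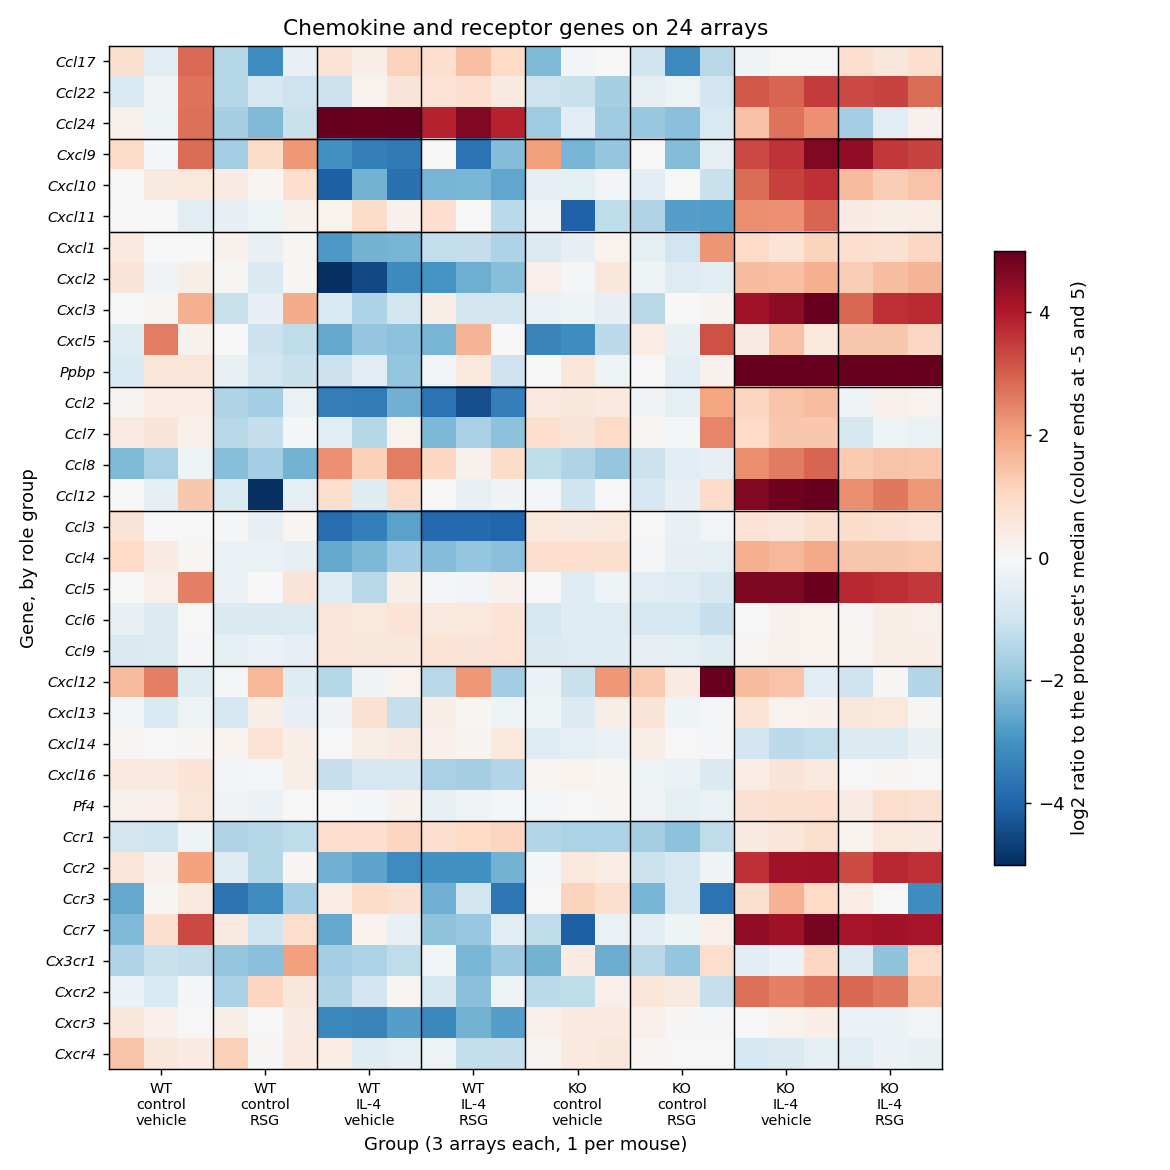
Log2 ratio of the representative probe set of each of the 33 genes (rows, in role groups) on the 24 arrays (columns, 3 per group, mice 1 to 3 for WT and 4 to 6 for KO). The colour ends at -5 and 5. The 3 arrays of KO with IL-4 and vehicle are red for most ligands, and the WT arrays with IL-4 are blue for Cxcl10, Cxcl2, Ccl2, Ccl3 and Ccr2 and red for Ccl24.

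Set side by side, the 33 genes fell into several classes in vehicle cultures. Higher in both genotypes were 5, Ccl24, Ccl6, Ccl8, Ccl9 and Ccr1. Lower in WT and higher in KO were 7, Ccl4, Ccl5, Ccr2, Cxcl10, Cxcl2, Cxcl9 and Ppbp. Another 5 were lower in WT without a call in KO (Ccl2, Ccl3, Cxcl1, Cxcl16, Cxcr3) and 8 were higher in KO without a call in WT (Ccl12, Ccl22, Ccr7, Cxcl11, Cxcl3, Cxcl5, Cxcr2, Pf4). Cxcr4 was lower in both, Cxcl14 was lower in KO alone, and 6 genes (Ccl17, Ccl7, Ccr3, Cx3cr1, Cxcl12, Cxcl13) were called in neither. The difference between the genotypes in the IL-4 change was itself tested: 29 of 49 probe sets passed, 59.2% against 14.6% of all, and by gene 20 had the lower change in WT and 1, Cxcl14, the higher, whereas 4.73% of all probe sets were lower and 9.84% higher. The median of that difference was -3.62 over the 33 genes and 0.24 over all probe sets.

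**Figure D2:**
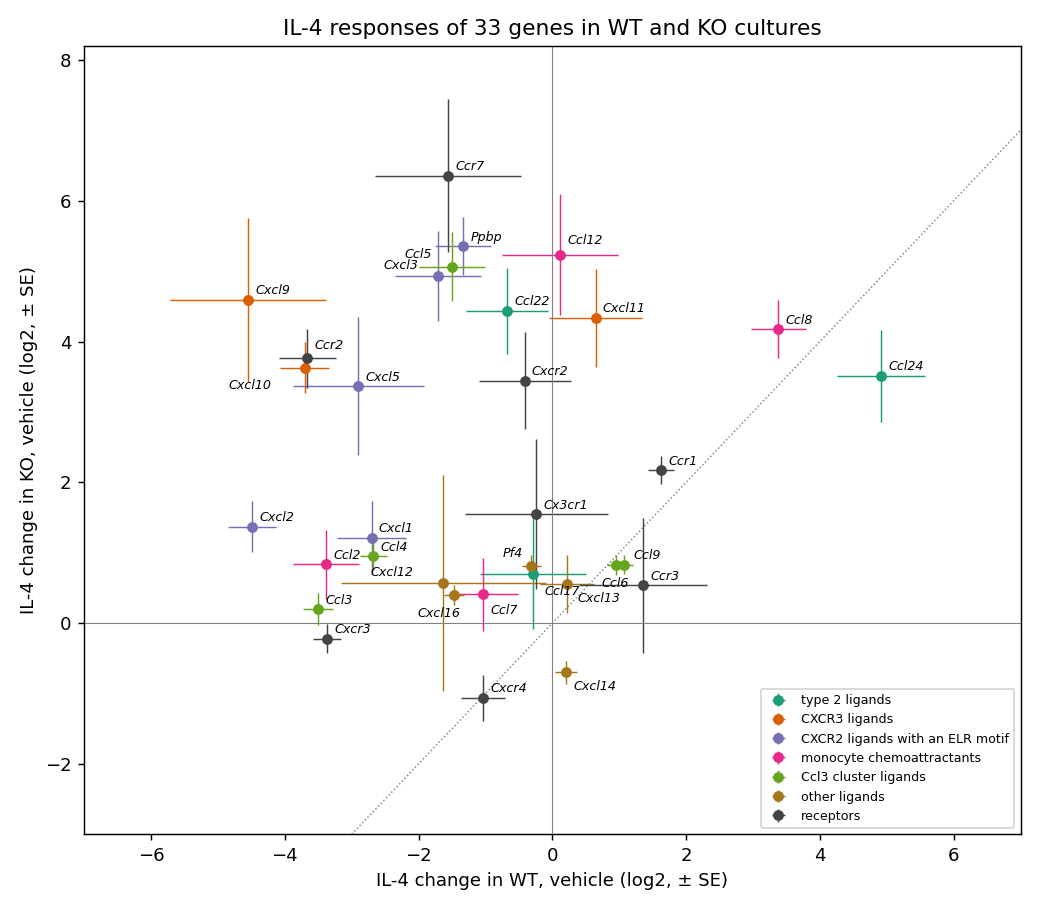
IL-4 change (log2, ± SE, 3 arrays per group) in WT on the horizontal axis and in KO on the vertical axis, both with vehicle, for the 33 genes, coloured by role group, with the dotted line marking equal change. Ccl24 lies below the line at 4.91 and 3.51, Ccr1 and Ccl8 lie right of 0 and above the line, and Cxcl9, Cxcl10, Ccr2 and Cxcl2 lie left of 0 and above it.

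The 4 cultures of each mouse also gave a second set of arrays, those with RSG, on which the IL-4 change was measured again in the same animals. In WT 14 of the 18 genes called with vehicle were called the same way with RSG, 77.8% of the vehicle calls and 93.3% of the 15 RSG calls. In KO it was 18 of 22, 81.8% of the vehicle calls and 90% of the 20 RSG calls. No gene was called in opposite directions. By probe set 44.9% (22 of 49) were called in WT with RSG against 13.5% of all, and 51% (25 of 49) in KO against 6.83%. Without mouse 4 or mouse 5 the KO count with RSG went from 25 to 16 or 13 probe sets. The 4 WT genes called with vehicle alone were Ccl5, Cxcl1, Cxcl9 and Ppbp, and the 4 KO genes Ccl12, Ccl24, Cxcl5 and Cxcr4. Whether the IL-4 change differed between RSG and vehicle was tested in WT, and no gene passed.

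The cultures differed in more than chemokines. Markers of other blood cells were highest in KO with IL-4. The 10 neutrophil and granule precursor markers (Ngp, Elane, S100a8 and others) had array means of 3.44 to 3.82 in KO with IL-4 and vehicle and of -4.36 to -3.56 in WT, and IL-4 raised 10 of 10 in KO and lowered 8 of 10 in WT. The 7 mast cell and basophil markers (Cpa3, Mcpt8, Fcer1a and others) had means of 5.88 to 6.31 in KO and -0.44 to 0.07 in WT, with 7 of 7 higher in KO after IL-4. For 8 lymphocyte markers the means were 3.15 to 3.59 and 0.18 to 0.65 (6 of 8 higher in KO), for 6 megakaryocyte and platelet markers 1.84 to 2.06 and -0.59 to -0.01 (5 of 6), and for 4 eosinophil markers 2.15 to 2.30 and -1.82 to 0.10 (2 of 4). The 6 macrophage markers had means of -0.01 to 0.17 in KO and -0.76 to -0.60 in WT, and the 8 dendritic cell markers 0.64 to 0.98 and 0.04 to 0.78. Single macrophage markers went opposite ways. Between KO and WT with IL-4, 2 were higher, 1 lower and 3 not called, with a median difference of -0.45. Of the dendritic cell markers 3 were higher, 2 lower and 3 not called. In bulk RNA, fewer cells of a type and less RNA per cell cannot be told apart, and the part of these cells in the chemokine changes was not tested. Because every value is a ratio to a median, the data do not show whether a marker was near its detection limit.

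**Figure D3:**
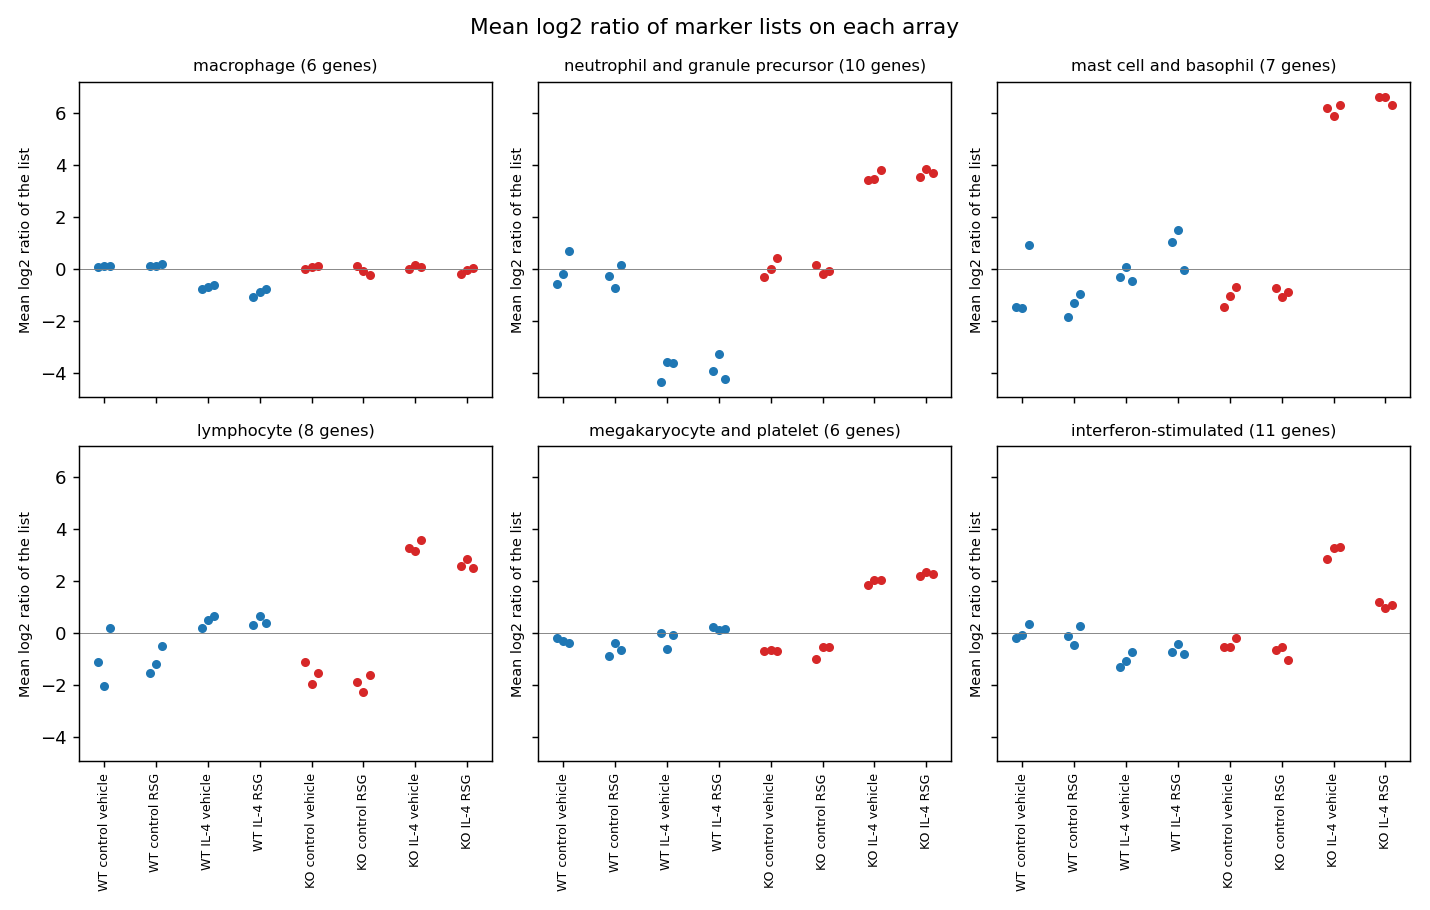
Mean log2 ratio of each marker list on each of the 24 arrays, in 6 panels on 1 scale (blue WT, red KO, 3 points per group). The red points of KO with IL-4 lie above all other groups for neutrophil, mast cell and basophil, lymphocyte, and megakaryocyte and platelet markers, and the interferon-stimulated list is lower with RSG than with vehicle among them.

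Of the ligands of Cxcr3, which draw Th1 and NK cells and are induced by interferons, all 3 rose in KO, while in WT 2 of 3 fell, Cxcl9 and Cxcl10. Cxcl10 was at -0.04, 0.45 and 0.53 in the WT control arrays and at -4.07, -2.35 and -3.74 with IL-4, a change of -3.70 ± 0.37 (adjusted p = 1e-06). In KO it went from -0.41, -0.48 and -0.13 to 2.81, 3.42 and 3.64, a change of 3.63 ± 0.37 (adjusted p = 2.7e-06). The groups do not overlap in either genotype, and with IL-4 the KO exceeded the WT by 6.68 ± 0.37. Cxcl9 was at 0.92, -0.07 and 2.79 in WT and at -3.04, -3.41 and -3.55 with IL-4 (-4.55 ± 1.17, adjusted p = 0.011). In KO Cxcl9 went from 2.07, -2.32 and -1.95 to 3.31, 3.62 and 4.64 (4.59 ± 1.17, adjusted p = 0.011). The control arrays of Cxcl9 scatter widely, and its calls depended on single mice: the WT call was lost without mouse 3 (-3.65, adjusted p = 0.13) or without that mouse's control vehicle array (-3.76, adjusted p = 0.061), and the KO call without mouse 5 or 6 (3.92 and 3.59, adjusted p = 0.13 and 0.19). A second Cxcl9 probe set changed by 1.21 ± 0.86 in WT and 0.70 ± 0.86 in KO, without a call.

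Cxcl11, the remaining Cxcr3 ligand, was between -0.57 and -0.01 in WT and at 0.19, 0.93 and 0.22 with IL-4, without a call (0.65 ± 0.70, adjusted p = 0.63). In KO it rose from -0.19, -4.06 and -1.25 to 2.34, 2.27 and 2.91 (4.34 ± 0.70, adjusted p = 0.00028). The KO group with IL-4 is tight and the control group wide. Its second probe set did not show the rise (0.21 ± 0.95, adjusted p = 0.93), and the higher KO value with IL-4 (2.06 ± 0.70, adjusted p = 0.032) lost its call without mouse 1, 2, 3 or 6 (1.86 to 2.30, adjusted p = 0.072 to 0.14). Its genotype difference in the IL-4 change lost its call without mouse 1, 2 or 6 (adjusted p = 0.061 to 0.069). The 11 interferon-stimulated genes measured (Ifit1, Rsad2, Mx1 and others) moved beside these ligands: 11 of 11 were higher in KO after IL-4, and in WT 7 were lower and 1 higher. Their array means were 2.85 to 3.33 in KO with IL-4 and vehicle and -1.31 to -0.72 in WT. Whether they share a cause with the ligands was not tested.

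The Cxcr2 ligands with an ELR motif before the first cysteine attract neutrophils. All 5 differed between the genotypes in the IL-4 change. Cxcl2, a product of activated macrophages, was at 0.66, -0.17 and 0.28 in WT and fell to -4.99, -4.52 and -3.19 with IL-4 (-4.49 ± 0.36, adjusted p = 9.7e-08). In KO it went from 0.25, -0.05 and 0.55 to 1.60, 1.49 and 1.78 (1.37 ± 0.36, adjusted p = 0.015). The WT decrease spans more than 3 log2 units between the nearest arrays of the groups, while the KO rise is smaller and its call was lost without mouse 4, 5 or 6 (1.29 to 1.44, adjusted p = 0.09 to 0.14) and after quantile normalization (1.15, adjusted p = 0.056). Cxcl3 was at 0.02, 0.09 and 1.79 in WT and at -0.75, -1.54 and -0.94 with IL-4 (-1.71 ± 0.64, adjusted p = 0.081). In KO it rose from -0.33, -0.27 and -0.39 to 4.18, 4.47 and 5.14 (4.93 ± 0.64, adjusted p = 3.9e-05). The WT groups of Cxcl3 do not overlap, yet the change missed the threshold.

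Ppbp encodes the precursor of a platelet chemokine. It was at -0.75, 0.59 and 0.59 in WT and at -1.08, -0.57 and -1.92 with IL-4 (-1.33 ± 0.42, adjusted p = 0.034), groups that overlap. That call was lost without mouse 2, 3, 4, 5 or 6 (-1.42 to -0.75, adjusted p = 0.059 to 0.31), without the mouse 3 control array (-1.11, adjusted p = 0.13) and without the stromal-high arrays (-1.11, adjusted p = 0.15). Without KO mouse 4, 5 or 6 the change itself stayed at -1.33. In KO Ppbp rose from 0.00, 0.59 and -0.23 to 5.36, 5.52 and 5.56 (5.36 ± 0.42, adjusted p = 1.7e-07), a call kept under every alternative tried. Cxcl5 was at -0.61, 2.57 and 0.23 in WT and at -2.54, -1.93 and -2.05 with IL-4, a change of -2.90 ± 0.98 just outside the threshold (adjusted p = 0.051). With the mouse as a block its adjusted p was 0.041. In KO Cxcl5 rose from -3.28, -3.09 and -1.29 to 0.42, 1.46 and 0.54 (3.37 ± 0.98, adjusted p = 0.026). This call was lost without mouse 3, 4 or 5 (adjusted p = 0.059 to 0.22), with the change still at 3.37 without WT mouse 3. Its excess in KO with IL-4 (2.98 ± 0.98, adjusted p = 0.027) was lost without the same mice (adjusted p = 0.073 to 0.11). Cxcl1 fell in WT by 2.70 on the log2 scale (SE 0.52, adjusted p = 0.0012), and in KO it changed by 1.22 ± 0.52 (adjusted p = 0.14), with a call once mouse 6 (1.36, adjusted p = 0.0058) or the stromal-high arrays (1.22, adjusted p = 0.0026) were left out. Its other probe sets changed by -0.83 ± 0.35 and -1.41 ± 0.48 in WT, without a call (adjusted p = 0.12 and 0.052).

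**Figure D4:**
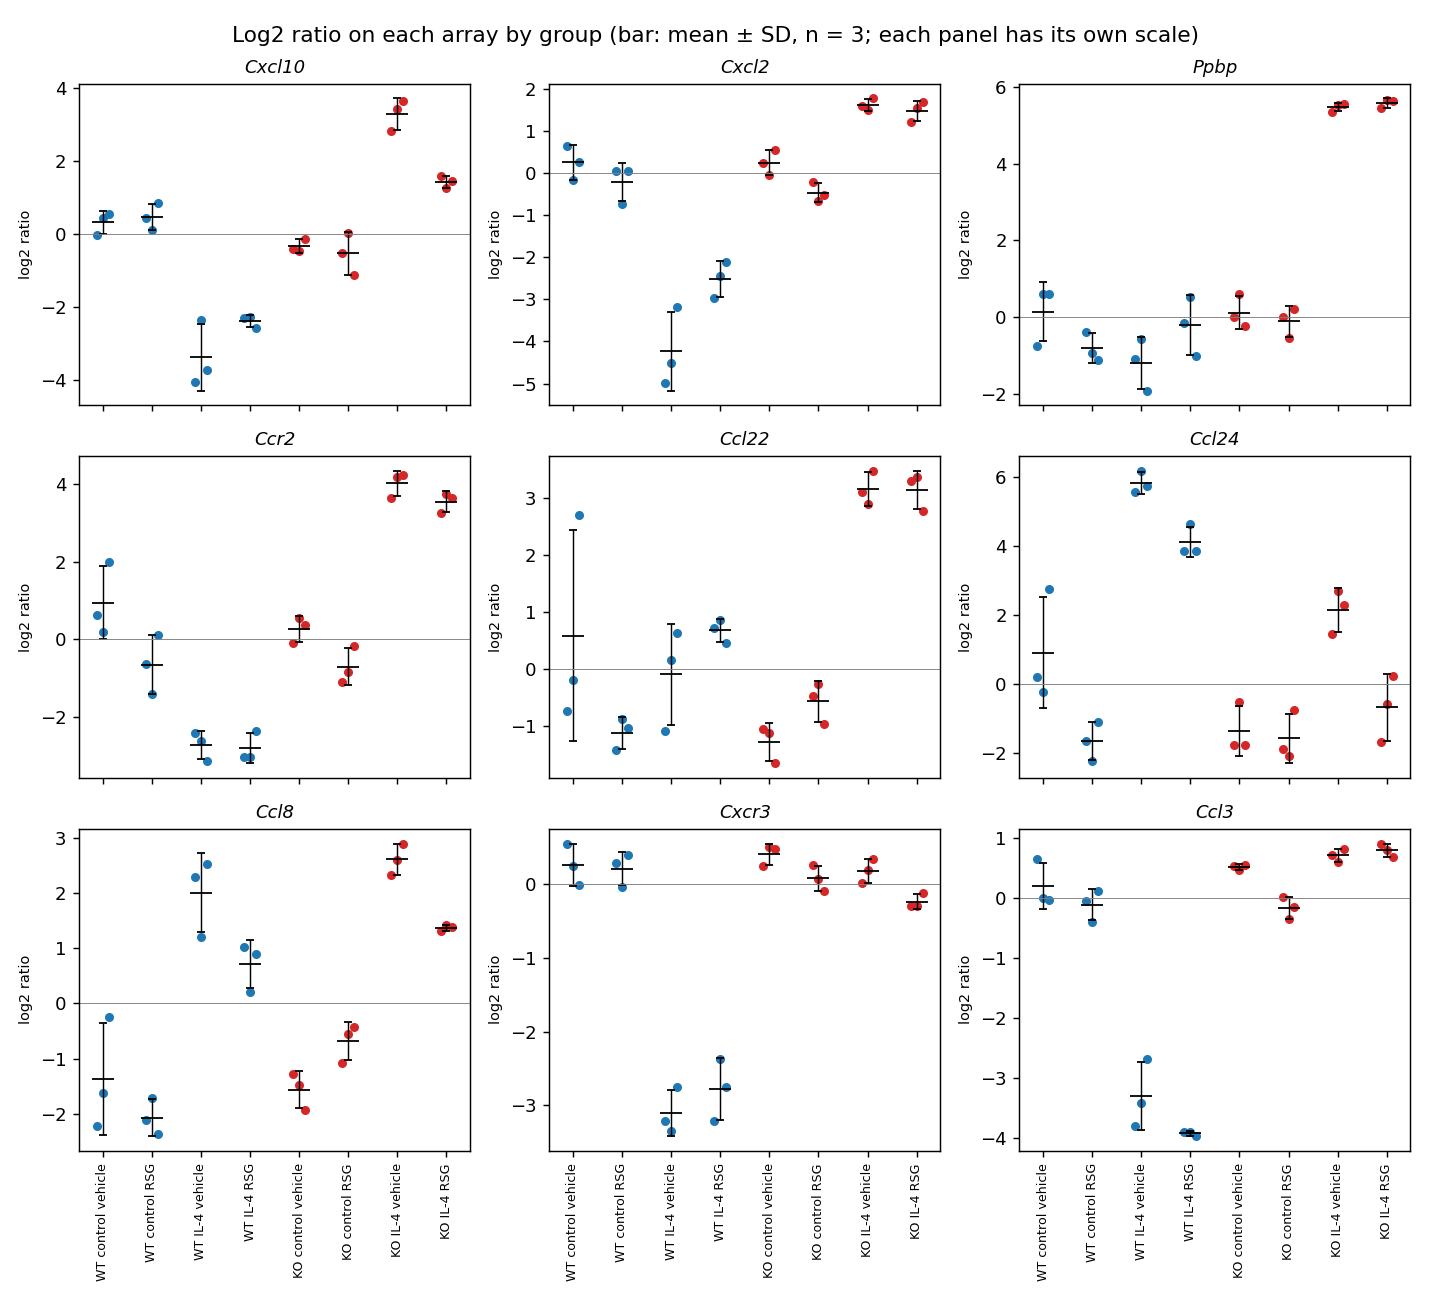
Log2 ratio of 9 genes on each array (points; blue WT, red KO), by group, with the mean ± SD of 3 arrays as bars; each panel has its own vertical scale. Cxcl10, Cxcl2 and Ccr2 fall with IL-4 in WT and rise in KO, Ccl3 and Cxcr3 fall in WT, Ccl8 and Ccl24 rise in both with vehicle, and the mouse 3 control array is the highest of its group for Ccl22, Ccl24, Ccr2 and Ccl8.

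The ligands of the Ccl3 cluster on chromosome 11 split into those that fell and those that rose in WT. Ccl3 and Ccl4, which macrophages release on activation, fell. Ccl3 went from 0.64, -0.01 and -0.03 to -3.80, -3.42 and -2.69 in WT (-3.50 ± 0.23, adjusted p = 6.3e-09). In KO it was at 0.53, 0.46 and 0.55 without and at 0.71, 0.59 and 0.82 with IL-4 (0.20 ± 0.23, adjusted p = 0.67). The changes of the genotypes differed by -3.70 ± 0.32 (adjusted p = 4.1e-07). Ccl4 went from 0.99, 0.40 and 0.10 to -2.55, -2.25 and -1.74 in WT (-2.68 ± 0.20, adjusted p = 3.2e-08) and from 0.82, 0.86 and 0.81 to 1.80, 1.64 and 1.89 in KO (0.95 ± 0.20, adjusted p = 0.0026). All 3 KO arrays with IL-4 exceeded the controls, but without mouse 6 (0.88, adjusted p = 0.059) or after quantile normalization (0.62, adjusted p = 0.088) the KO call was lost.

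Ccl5, a T cell and monocyte attractant, was at 0.01, 0.25 and 2.53 in WT and at -0.62, -1.41 and 0.30 with IL-4 (-1.50 ± 0.49, adjusted p = 0.043). The WT groups overlap, and the value of 2.53 came from the array of mouse 3 that stood apart. Without that array the change was -0.70 (adjusted p = 0.23), and without mouse 1, 2, 4, 5 or 6 the call was lost as well (-1.94 to -1.43, adjusted p = 0.053 to 0.16). Mice 4, 5 and 6 are KO animals outside this comparison. Without any of them the change stayed at -1.50, and only the pooled spread and the adjustment differed. In KO Ccl5 rose from -0.02, -0.66 and -0.26 to 4.68, 4.67 and 4.90 (5.06 ± 0.49, adjusted p = 1.9e-06). Ccl9 and Ccl6, which are mouse chemokines made by myeloid cells, rose in both genotypes. Ccl9 went from -0.71, -0.69 and -0.10 to 0.60, 0.56 and 0.56 in WT (1.07 ± 0.13) and from -0.74, -0.64 and -0.61 to 0.11, 0.21 and 0.17 in KO (0.83 ± 0.13). Ccl6 rose by 0.96 ± 0.14 in WT and by 0.83 ± 0.14 in KO. The difference between the genotypes in the IL-4 change was 0.25 ± 0.19 for Ccl9 and 0.13 ± 0.20 for Ccl6, neither called. Ccl5, Ccl9, Ccl6, Ccl3 and Ccl4 follow each other in this order on chromosome 11, so that the genes that rose in both lie between those that fell in WT.

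Among the genes grouped as monocyte chemoattractants (Ccl2, Ccl7, Ccl8 and Ccl12), Ccl8 rose in both genotypes and Ccl2 fell in WT. Ccl8 went from -2.22, -1.63 and -0.25 to 2.29, 1.20 and 2.54 in WT (3.38 ± 0.41, adjusted p = 1.2e-05) and from -1.28, -1.49 and -1.93 to 2.33, 2.61 and 2.90 in KO (4.18 ± 0.41, adjusted p = 2.2e-06). The changes differed by -0.80 ± 0.58 without a call. Ccl2 went from 0.15, 0.35 and 0.35 to -3.40, -3.48 and -2.42 in WT (-3.38 ± 0.49, adjusted p = 7.8e-05) and from 0.48, 0.56 and 0.50 to 1.09, 1.41 and 1.55 in KO (0.84 ± 0.49, adjusted p = 0.31). The KO arrays of Ccl2 do not overlap, though the change missed the threshold. By the methods' t-test it passed (adjusted p = 0.048). Ccl12 was at 0.01, -0.45 and 1.33 in WT and 0.87, -0.59 and 0.94 with IL-4 (0.11 ± 0.87, adjusted p = 0.96), and in KO it rose from -0.07, -0.997 and 0.02 to 4.63, 4.86 and 5.18 (5.24 ± 0.87, adjusted p = 0.00037). Its genotype difference lost its call without mouse 5 (-4.81, adjusted p = 0.063). Ccl7 was called in neither genotype, with -1.03 ± 0.52 in WT and 0.41 ± 0.52 in KO. With IL-4 Ccl7 was higher in KO than in WT by 1.82 ± 0.52 (adjusted p = 0.012), a call lost without mouse 2 (1.39, adjusted p = 0.11). Ccl2, Ccl7, Ccl12 and Ccl8 share a cluster on chromosome 11 with Ccl11.

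The type 2 ligands attract Th2 cells and eosinophils, and 1 of 3 rose in WT with vehicle. Ccl24, an eosinophil attractant, went from 0.20, -0.24 and 2.75 to 5.56, 6.17 and 5.72 in WT (4.91 ± 0.66, adjusted p = 3.3e-05). In KO it went from -1.78, -0.53 and -1.77 to 1.45, 2.70 and 2.30 (3.51 ± 0.66, adjusted p = 0.0011). With IL-4 the KO stayed below the WT by -3.67 ± 0.66 (adjusted p = 0.00029), while the IL-4 changes of the genotypes differed by 1.40 ± 0.93 (adjusted p = 0.38). Without the mouse 3 control array the WT change was 5.83 (adjusted p = 1.5e-06), but by the methods' t-test on all arrays the WT call was lost (adjusted p = 0.065). With RSG Ccl24 rose in WT by 5.77 ± 0.66 (adjusted p = 5.1e-06) and was at -1.70, -0.57 and 0.22 in KO, a change of 0.90 ± 0.66 (adjusted p = 0.49).

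Ccl22 and Ccl17, ligands of Ccr4 on Th2 and regulatory T cells, were not called in WT with vehicle. Ccl22 was at -0.74, -0.19 and 2.71 in WT and at -1.08, 0.17 and 0.64 with IL-4 (-0.68 ± 0.61, adjusted p = 0.54). In KO it rose from -1.05, -1.12 and -1.66 to 3.11, 2.90 and 3.48 (4.44 ± 0.61, adjusted p = 6.6e-05). The direction of the WT change rested on the array of mouse 3, without which it was 0.38 (adjusted p = 0.63). With RSG Ccl22 went in WT from -1.43, -0.88 and -1.04 to 0.73, 0.86 and 0.46, a change of 1.80 without a call. Some alternatives called it, among them the methods' t-test (adjusted p = 0.019) and the mouse as a block (adjusted p = 0.036). Leaving out the mouse 3 control array did so too (adjusted p = 0.0013). Ccl17 was at 0.81, -0.56 and 2.81 in WT and at 0.74, 0.32 and 1.15 with IL-4, a change of -0.29 ± 0.79 (adjusted p = 0.87) that was 0.61 (adjusted p = 0.71) without that array. In KO it changed by 0.70 ± 0.79 (adjusted p = 0.66). With RSG Ccl17 rose in WT from -1.42, -3.11 and -0.39 to 0.84, 1.51 and 0.99 (2.76 ± 0.79, adjusted p = 0.02) and in KO from -0.98, -3.20 and -1.39 to 0.84, 0.57 and 0.86 (2.61 ± 0.79, adjusted p = 0.049). These calls were lost without mouse 1 or 2 in WT (3.01 and 1.82, adjusted p = 0.099 and 0.19) and without mouse 1, 4, 5 or 6 in KO (2.04 to 3.01, adjusted p = 0.1 to 0.32). Ccl22 and Ccl17 lie on chromosome 8 with 1 coding gene, Cx3cl1, between them.

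Of the other ligands, Cxcl16, a transmembrane ligand of Cxcr6, fell in WT from 0.48, 0.48 and 0.67 to -1.14, -0.84 and -0.80 (-1.47 ± 0.15, adjusted p = 1.1e-06) and changed by 0.40 ± 0.15 in KO (adjusted p = 0.079). Pf4, the platelet factor 4 gene, rose in KO from -0.05, -0.03 and 0.05 to 0.78, 0.82 and 0.83 (0.82 ± 0.14, adjusted p = 0.00065) and changed by -0.32 ± 0.14 in WT (adjusted p = 0.16). Cxcl14 fell in KO from -0.59, -0.47 and -0.32 to -0.95, -1.31 and -1.22 (-0.70 ± 0.16, adjusted p = 0.0065) and changed by 0.21 ± 0.16 in WT. The Cxcl14 call was lost without mouse 5 or 6 (-0.63 and -0.60, adjusted p = 0.11 and 0.092), and with the arrays centred on their medians the decrease of 0.56 on the log2 scale was below 1.5-fold. A second Cxcl14 probe set changed by -0.35 ± 0.22 in KO without a call (adjusted p = 0.35). The difference between the genotypes on the representative Cxcl14 probe set (0.91 ± 0.23, adjusted p = 0.012) lost its call without mouse 2, 3, 5 or 6 (0.81 to 0.87, adjusted p = 0.054 to 0.085). Cxcl12, a stromal chemokine, and Cxcl13, a B cell attractant, were called in no comparison. Cxcl12 ranged from -1.72 to 7.78 and was highest in mouse 6 on the stromal-high array.

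Of the 8 receptor genes, Ccr1, a receptor for Ccl3, Ccl5 and other ligands on monocytes and macrophages, rose in both genotypes, by 1.62 ± 0.20 in WT (adjusted p = 1.4e-05) and 2.17 ± 0.20 in KO (adjusted p = 1.1e-06). With IL-4, KO minus WT was -0.30 ± 0.20 for this Ccr1 probe set without a call, but a second one was higher in KO by 0.64 ± 0.23 (adjusted p = 0.041), and its IL-4 change differed between the genotypes by -1.34 ± 0.32 (adjusted p = 0.0079). The call with IL-4 of that second probe set was lost without mouse 1, 2, 4, 5 or 6 (0.51 to 0.71, adjusted p = 0.075 to 0.2). Ccr2, the monocyte receptor for Ccl2, went from 0.62, 0.20 and 2.01 to -2.42, -2.62 and -3.13 in WT (-3.67 ± 0.42, adjusted p = 6.4e-06). In KO it went from -0.11, 0.54 and 0.36 to 3.66, 4.19 and 4.23 (3.76 ± 0.42, adjusted p = 8.6e-06). The Ccr2 groups do not overlap in either genotype, and the changes differed by -7.43 ± 0.60. Another Ccr2 probe set was not called in WT (-1.69 ± 0.62, adjusted p = 0.073). Ccr7, which leads dendritic cells and T cells to lymph nodes, was at -2.20, 0.81 and 3.32 in WT and at -2.55, 0.19 and -0.38 with IL-4 (-1.56 ± 1.09, adjusted p = 0.4). In KO it rose from -1.26, -4.07 and -0.33 to 4.42, 4.24 and 4.75 (6.36 ± 1.09, adjusted p = 0.00051). The WT arrays of Ccr7 scatter widely in both groups, and without the mouse 3 control array its WT change was -0.22 (adjusted p = 0.93).

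Cxcr2, the neutrophil receptor, was between -1.50 and 0.08 on the 6 WT vehicle arrays (-0.41 ± 0.69, adjusted p = 0.78). In KO Cxcr2 rose from -1.29, -1.28 and 0.25 to 2.76, 2.51 and 2.74 (3.45 ± 0.69, adjusted p = 0.0019). The rise stood beside the 10 neutrophil markers described above, and its genotype difference lost its call without mouse 4 or 5 (-3.56 and -3.69, adjusted p = 0.065 and 0.068). Cxcr3, the receptor for Cxcl9 and Cxcl10, fell in WT from 0.55, 0.25 and -0.01 to -3.22, -3.35 and -2.76 (-3.37 ± 0.21, adjusted p = 3.4e-09) and was at 0.24, 0.50 and 0.48 and then 0.01, 0.19 and 0.34 in KO (-0.22 ± 0.21, adjusted p = 0.57). Cxcr3, Cxcl9 and Cxcl10 were all called lower in WT, and in KO the ligands rose without a call for the receptor. Cxcr4, the receptor for Cxcl12, fell by 1.04 in WT and by 1.06 in KO on the log2 scale (SE 0.33, adjusted p = 0.036 and 0.035), calls lost without mouse 2, 3, 4, 5 or 6 in WT (adjusted p = 0.067 to 0.15) and without mouse 3, 4, 5 or 6 in KO (adjusted p = 0.053 to 0.23). Without mouse 4, 5 or 6 the WT change stayed at -1.04, and without mouse 3 the KO change stayed at -1.06. Ccr3, an eosinophil receptor, was not called. For Cx3cr1, the fractalkine receptor of monocytes, the representative probe set was not called (-0.24 ± 1.07 in WT), but a second one fell in WT from 0.46, 0.56 and 0.93 to -3.34, -2.33 and -4.11 (-3.91 ± 0.44, adjusted p = 4.2e-06) and changed by 0.56 ± 0.44 in KO. The Cx3cr1 probe sets disagree, the second having a median ratio of 1 and the representative one of 0.40, and which of them reads the transcript is not settled by these values.

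Without IL-4 no gene was called between KO and WT. Of 49 probe sets 15 were under an unadjusted p of 0.05, against 4144 of 45037 in all, and 0.109% of all probe sets were called. The methods' t-test and the other alternatives also called 0. Changes ran from -3.29 for Cxcl5 (adjusted p = 0.26) to 1.32 for Ccr3 (adjusted p = 0.75). Of the 33 genes 26 were lower in KO, and part of this followed the array of mouse 3: without it the difference went from -1.87 to -0.81 for Ccl22, from -2.27 to -1.35 for Ccl24 and from -2.53 to -1.20 for Ccr7. With IL-4, 31 of 49 probe sets were called between KO and WT, 63.3% against 24.2% of all, and by gene 21 were higher and 2 (Ccl24, Cxcl14) lower in KO, whereas over all probe sets 17.3% were called lower and 6.94% higher. The largest excesses in KO were 7.19 ± 1.17 for Cxcl9, 6.75 ± 0.42 for Ccr2, 6.68 ± 0.37 for Cxcl10 and 6.67 ± 0.42 for Ppbp. The second Cxcl9 probe set differed by 1.12 ± 0.86 without a call (adjusted p = 0.39), and that of Cxcl11 by -0.14 ± 0.95 (adjusted p = 0.94). That of Cx3cr1 was higher in KO by 4.26 ± 0.44 (adjusted p = 6.9e-07), while its representative probe set was not called. This comparison and the IL-4 changes share their arrays, so the values are not separate evidence.

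RSG changed few chemokine genes. In WT with IL-4, 2 of 49 probe sets were called, 4.08% against 0.688% of all. Cxcl2 went from -4.99, -4.52 and -3.19 to -2.98, -2.45 and -2.12, higher by 1.72 ± 0.36 with RSG (adjusted p = 0.032), and Cxcl16 went from -1.14, -0.84 and -0.80 to -1.62, -1.65 and -1.47, lower with -0.65 ± 0.15 (adjusted p = 0.046). A second Cxcl16 probe set changed by -0.65 ± 0.18 without a call (adjusted p = 0.13). On every mouse Cxcl2 was higher and Cxcl16 lower with RSG. The Cxcl2 call was lost without mouse 1, 2, 4, 5 or 6 (1.54 to 1.72, adjusted p = 0.091 to 0.29) and Cxcl16 without any 1 of the 6 mice (-0.74 to -0.58, adjusted p = 0.071 to 0.45). On the scale log2(ratio + 0.1) the Cxcl2 change was 0.81 (adjusted p = 0.19). In KO with IL-4, Cxcl10 went from 2.81, 3.42 and 3.64 to 1.58, 1.25 and 1.44, lower with -1.87 ± 0.37 (adjusted p = 0.021), and 2.04% of the probe sets were called against 0.515% of all. It was lost without mouse 3, 4, 5 or 6 (-2.18 to -1.70, adjusted p = 0.052 to 0.28), and with the mouse as a block it had an adjusted p of 0.051. The interferon-stimulated list went the same way in KO with IL-4, from array means of 2.85 to 3.33 with vehicle to 0.96 to 1.20 with RSG, and its part in the Cxcl10 change was not tested. Ccl24 was lower with RSG in KO with IL-4 by -2.83 ± 0.66 without a call (adjusted p = 0.069), and without the mouse 3 control array or the stromal-high arrays it passed (adjusted p = 0.0103 and 0.0495). In WT with IL-4, Cxcl1 changed by 1.22 ± 0.52 with RSG (adjusted p = 0.48) and passed without the stromal-high arrays (adjusted p = 0.025).

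In KO control cultures Ccl4 was at 0.82, 0.86 and 0.81 with vehicle and at -0.11, -0.41 and -0.47 with RSG (-1.16 ± 0.20, adjusted p = 0.02), the only call there, 2.04% of probe sets against 0.138% of all. The Ccl4 call was lost without mouse 2, 4, 5 or 6 (-1.27 to -1.10, adjusted p = 0.099 to 0.3), with the mouse as a block (adjusted p = 0.082) and without the stromal-high arrays (adjusted p = 0.1). In WT control cultures no gene was called with RSG (0.118% of all probe sets were), 19 of 49 probe sets had an unadjusted p under 0.05 against 3406 of 45037 in all, and Ccl4 changed by -0.86 ± 0.20 (adjusted p = 0.12). Without the mouse 3 control array the Ccl4 change in WT was -1.05 (adjusted p = 0.046), a call. The largest WT control changes were -2.66 ± 0.79 for Ccl17 and -2.57 ± 0.66 for Ccl24 (adjusted p = 0.3 and 0.18), and without that array they were -1.77 and -1.65. For the difference of the RSG change between IL-4 and control in WT no gene was called and 13 of 49 probe sets had an unadjusted p under 0.05, against 2736 of 45037 in all, with 0.0289% of all probe sets called.

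**Figure D5:**
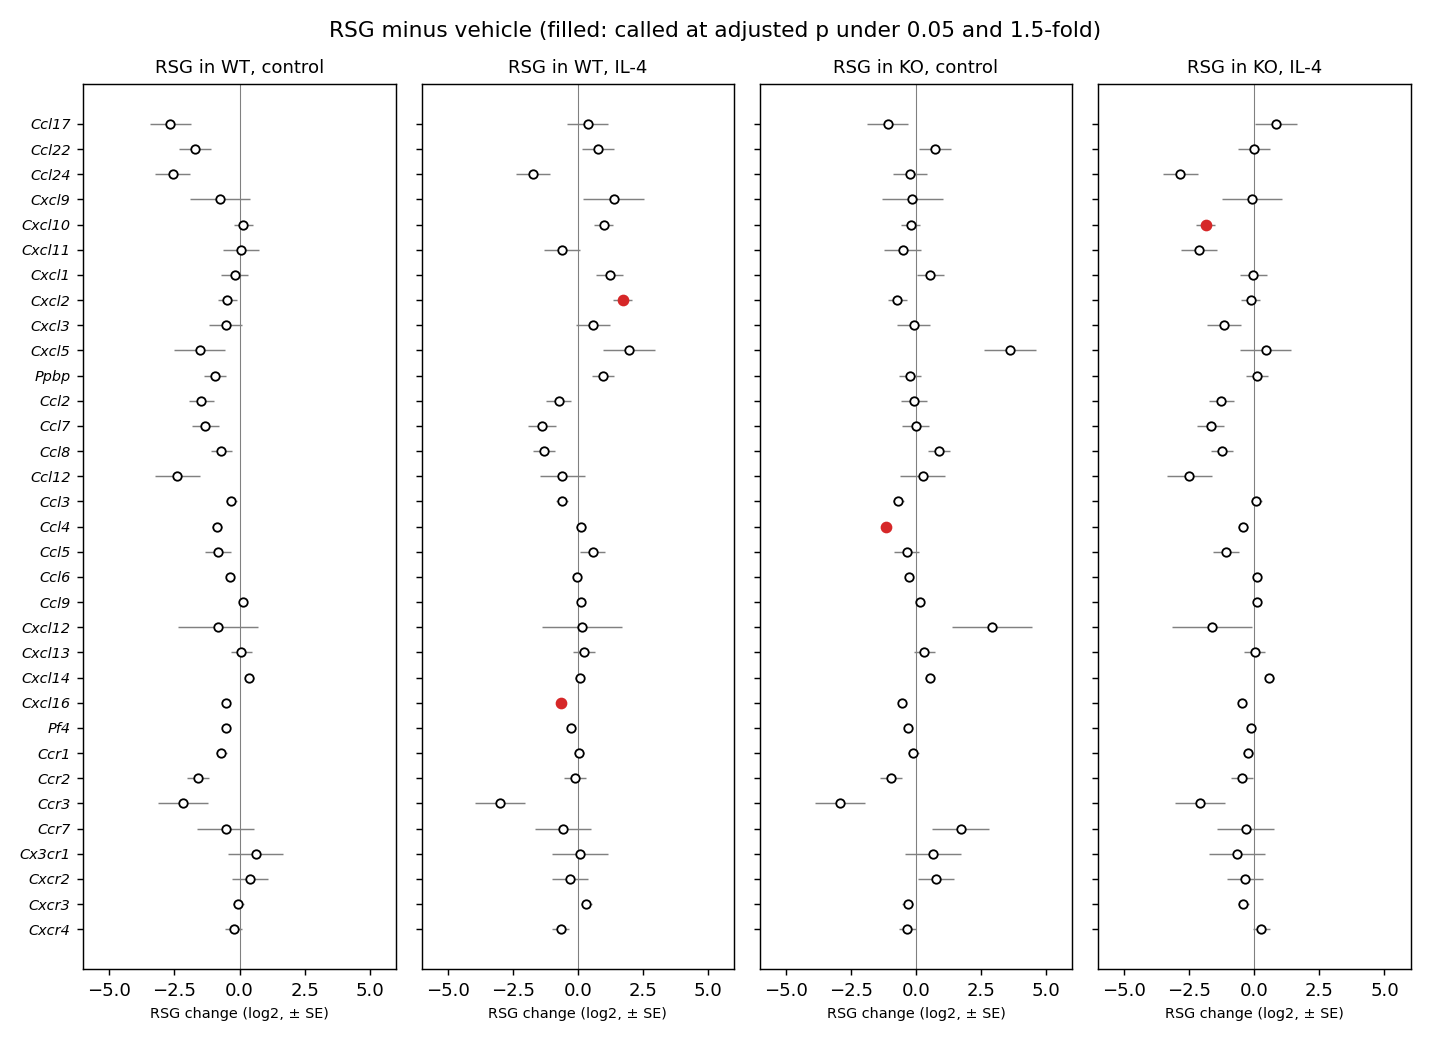
RSG change (log2, ± SE, 3 arrays per group) of the 33 genes in the 4 settings of genotype and IL-4; filled red points are called, open points are not. Cxcl2 and Cxcl16 are filled in WT with IL-4, Ccl4 in KO control and Cxcl10 in KO with IL-4, and no point is filled in WT control.

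Beyond these 33 genes, 31 of 34 listed genes of the chemokine system (other ligands and receptors, atypical receptors and signaling proteins) were measured. With 1 representative probe set per gene, IL-4 raised 3 and lowered 2 of the 31 in WT and raised 4 and lowered 2 in KO. Of all probe sets 12.9% and 11.5% were called. KO differed from WT with IL-4 for 6 of the 31 (5 higher, 1 lower), where 24.2% of all probe sets were called. In KO Xcl1, a ligand made by NK and CD8 T cells, rose by 6.00 ± 1.04 (adjusted p = 0.00055) and Cxcr6, the receptor of Cxcl16, by 4.92 ± 0.65 (adjusted p = 4.8e-05), beside the 6 of 8 lymphocyte markers that rose. In WT Xcr1, the receptor of Xcl1, rose by 2.43 ± 0.71 (adjusted p = 0.023), and Ccl27a changed by -1.81 ± 0.59 (adjusted p = 0.041). With IL-4, Cmklr1, the chemerin receptor, was higher in KO than in WT by 3.86 ± 0.99 (adjusted p = 0.0058), and Arrb2, an arrestin that uncouples receptors, changed by -0.99 ± 0.16 in WT (adjusted p = 0.00018).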

How the data were processed

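Total RNA of bone marrow-derived macrophages was measured on Affymetrix mouse arrays, 1 per mouse and condition. For each probe set 1 spread was estimated over all 8 groups of 3 mice. The p-values therefore do not measure the spread of the compared groups alone. The authors deposited a linear ratio per probe set, made from the scans (GCOS) by GC-RMA in GeneSpring, scaled to each chip's 50th percentile and then to each probe set's median; the version of GC-RMA is not given in the sources used here. The methods name a further division by the vehicle controls that the deposited values do not carry. Array number, not read depth, limits the precision. All 24 sample columns were used (0 were not).

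The log2 ratios of 45037 probe sets, 64 controls left out, were fitted with limma 3.58.1 in R 4.3.3 (lmFit, eBayes) as 8 groups. No variance trend was used, since the mean of such ratios is no level. Calls were made at 0.05 after Benjamini-Hochberg adjustment, with a change of at least 1.5-fold. A gene's representative probe set was the one with the most specific suffix, then the lowest number. Same-numbered arrays come from the same mouse; deviations from the group means of 36 such pairs had a mean r of 0.0106 (-0.0229 to 0.0462), and the fit with mouse as a block had a consensus correlation of 0.0114. In data simulated for the WT vehicle comparison of IL-4 with control (45037 probe sets), 8% of 1.5-fold, 38% of 2-fold, 44% of 4-fold and 68% of 8-fold changes were recovered, 50 of each. No other probe set was changed there, while 12.9% were called in the real comparison. The adjustment is stricter where fewer probe sets change, so these shares do not give the recovery in the real data.

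The alternatives were the mouse as a block, a variance trend, the methods' t-test, the compared arrays alone, quantile normalization, arrays centred on their medians, log2(ratio + 0.1), probe sets with a median of 1, and leaving out each mouse, the mouse 3 control array or the stromal-high arrays. Array values are given for up to 4 called genes per role group, the largest changes first, and for every gene called for RSG. Second probe sets that differ are given by their change for IL-4 with vehicle and for some other comparisons. Of these only Cx3cr1 has array values. Of the wider chemokine list, the 6 called genes with the largest changes were eligible. The members and lists were chosen with earlier results of these data known. Promoters came from RefSeq. Some genes and motifs are not reported here.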

Additional observations from a re-analysis of the deposited data

Results flagged for a closer look

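The IL-4 change differed between WT and KO in vehicle cultures on the representative probe set of 21 of the 33 genes. This was by the interaction term in limma (WT change minus KO change, log2). Among the Cxcr3 ligands the difference was -9.14 for Cxcl9, -7.33 for Cxcl10 and -3.69 for Cxcl11. Second probe sets did not show it, with 0.50 for Cxcl9 and 0.79 for Cxcl11 (adjusted p = 0.85 and 0.78). Among the Cxcr2 ligands the difference was -6.69 for Ppbp, -6.64 for Cxcl3, -6.27 for Cxcl5, -5.86 for Cxcl2 and -3.92 for Cxcl1, with -1.19 and no call on another Cxcl1 probe set (adjusted p = 0.12). Of the ligands of the Ccl3 cluster, Ccl5 had -6.57, Ccl3 -3.70 and Ccl4 -3.62. Of the monocyte chemoattractants and type 2 ligands, Ccl12 had -5.12, Ccl22 -5.12 and Ccl2 -4.22. The receptors had -7.91 for Ccr7, -7.43 for Ccr2, -3.86 for Cxcr2 and -3.14 for Cxcr3. Second probe sets of Cx3cr1 (-4.47, adjusted p = 6.4e-05) and Ccr1 (-1.34, adjusted p = 0.0079) also passed, where the representative ones did not. The remaining ligands had -1.87 for Cxcl16, -1.13 for Pf4 and 0.91 for Cxcl14. Dixon's test for single values was not run, since all groups hold 3 arrays.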

How the results depend on the processing

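Of 164 calls of member probe sets over all comparisons, 100 were kept under every alternative, 64 were lost under at least 1, and 0 were reversed. Leaving out mouse 4, 5 or 6 lost 26, 34 and 27 of them, mouse 1, 2 or 3 lost 12, 16 and 16, and the methods' t-test, not run for the interaction terms, lost 45 of 135. The t-test called 12 probe sets for IL-4 in WT with vehicle (25) and 12 for IL-4 in KO with RSG (25), where leaving out a mouse gave 13 to 26. For RSG in WT control (0) quantile normalization and leaving out the mouse 3 control array each gave 1. For RSG in WT with IL-4 (2) the variance trend, the t-test, the compared arrays alone, quantile normalization and log2(ratio + 0.1) each gave 0, and leaving out a mouse 0 to 1. For RSG in KO control (1) the t-test, the compared arrays alone and leaving out the stromal-high arrays gave 0, and leaving out a mouse 0 to 1. For RSG in KO with IL-4 (1) the t-test, the compared arrays alone and quantile normalization gave 0, leaving out the mouse 3 control array or the stromal-high arrays 2, and leaving out a mouse 0 to 2. Leaving out arrays outside a comparison altered only the spread and the adjustment, not the change itself. The cause of the other shifts was not tested.

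With the mouse as a block (the pairing of arrays by animal) the counts were 27 and 28 for IL-4 in WT and KO with vehicle, 23 and 25 with RSG, 0 and 32 for KO against WT without and with IL-4, 28 for the difference between the genotypes, 0 and 3 for RSG in WT without and with IL-4, and 0 and 0 for RSG in KO. The block lost 4 of the 164 calls.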
